A study of Ictalurus punctatus x Ictalurus furcatus and Ictalurus furcatus and Ictalurus punctatus with 8 samples.

Results

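The proteasome genes of catfish liver are described here across reciprocal hybrids and their parental species. Members were the genes whose symbol, whatever its case, began with psm, a letter from a to g and a digit, and 51 of the 13444 listed genes matched. All 51 had a type mean above 1 CPM (the read count of a gene scaled to the library total) in at least 1 genetic type, as did 13420 genes in all. Whole livers of fish about a year old were sampled from F1BC (blue catfish female crossed with channel catfish male), F1CB (channel catfish female crossed with blue catfish male), channel catfish (PC, Ictalurus punctatus) and blue catfish (PB, Ictalurus furcatus), with 2 livers of each type and 8 libraries in total. No treatment was applied, and because every type had its own tank, an effect of the tank and an effect of the type cannot be told apart. Reads of every type, blue catfish and hybrids included, were mapped to the genome of the channel catfish, so a difference in mapping between the species cannot be told apart from a difference in level. The column labels of the 2 livers of a type share a code whose meaning is not stated. Nothing else in the labels says how the 2 fish of a type were related, and p-values measure only the spread between these livers. Levels are relative to the library total, and in whole liver a smaller number of cells of a kind and less RNA per cell cannot be told apart.

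The proteasome is the protease complex that degrades proteins tagged with ubiquitin. Its core particle is a barrel of outer alpha rings and inner beta rings, with the cutting sites on 3 of the beta subunits. A regulatory particle, made of a ring of ATPases (psmc genes) and of non-ATPase subunits (psmd genes), binds the ubiquitin chain, removes it and feeds the unfolded protein into the core. Immune beta subunits, induced by interferon in mammals, replace the cutting subunits and change which peptides are released for antigen presentation. Separate activators can cap the core in place of the regulatory particle, and chaperones help to assemble the rings. By these roles the members fell into 9 core alpha genes, 7 constitutive core beta genes, 4 immune beta genes, 6 regulatory ATPases, 11 regulatory non-ATPase genes, 5 activators or inhibitors, 4 chaperones of the core and 3 chaperones of the regulatory base. The rule also took in 2 genes of interacting proteins, psmc3ip and psme3ip1, which are not subunits.

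The libraries read as liver, with 13 hepatocyte genes summing to between 147979 and 228649 CPM. The 20 most abundant genes took 28.3% to 39.0% of a library, and median-of-ratios scaling gave factors between 0.79 and 1.2. The deposited values carry no read counts, and the sequencing yields that the authors report were not used here, so depth was not assessed. Livers of a type were not alike for these genes. In F1CB 46 of 51 members were higher in the second liver than in the first, where 62.9% of all genes were. The same was so for 41 members in PC (49.9% of all genes), 46 in PB (61.5%) and 36 in F1BC (37.6%). The liver with the higher proteasome level also had the higher sum of 6 pancreatic enzyme and hormone genes in F1CB (488 and 3072 CPM), PC (231 and 3065 CPM) and PB (1058 and 2272 CPM), but not in F1BC (885 and 184 CPM). The pattern was not particular to the pancreas. Red blood cell genes shared it, with 826 and 469 CPM in F1BC and 383 and 1113 CPM in F1CB. Endothelial and stellate genes did too, with 457 and 300 CPM in F1BC and 444 and 454 CPM in F1CB. In PC and PB both sums were also higher in the second liver. The leukocyte sum was lower in the second liver of F1CB alone, and the hepatocyte sum was higher in the second liver of F1BC alone. The part of any of these cells in these levels was not tested.

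Core and regulatory transcripts were lowest in PC and highest in PB in the mean. The 33 core and regulatory genes summed to 831 and 922 CPM in F1BC, 986 and 1410.2 CPM in F1CB, 574 and 958 CPM in PC, and 1356 and 2146 CPM in PB. No PC liver reached the lower PB liver, and the mean sum in PC was 0.437 times that in PB, against 0.501 times in F1BC and 0.684 times in F1CB. Over all 51 members the sums were 1234 and 1288 CPM in F1BC, 1329 and 1871 CPM in F1CB, 1103 and 1542 CPM in PC, and 1860.4 and 2852 CPM in PB. The regulatory ATPases had the lowest ratio of PC to PB among these classes (0.335), with 76.1 and 183 CPM in PC against 255 and 518 CPM in PB. The sum of the 4 chaperones of the core ran the other way, with 138 and 65.0 CPM in PC against 39.5 and 41.1 CPM in PB. In PC most of that sum was psmg3, with 116 and 40.3 CPM against 24.3 and 18.8 CPM in PB. Of the 4 genes 3 were higher in PC and 1 lower, psmg2 (log2 fold change -0.30). Markers of other cell types also differed in direction between PC and PB. Lower in PC were 6 of 6 pancreatic genes (median log2 fold change -0.98), 4 of 5 red blood cell genes (-1.06) and 8 of 11 endothelial and stellate genes (-0.50), among which acta2 and egfl7 were DEGs. Their sums overlapped between the species, with 231 and 3065 CPM in PC against 1058 and 2272 CPM in PB for the pancreas, 849.96 and 1699 CPM in PC against 664 and 1840.4 CPM in PB for red blood cells, and 373 and 776 CPM in PC against 587 and 882 CPM in PB for endothelium and stellate cells. The hepatocyte list leaned the same way, with 9 of 13 genes lower in PC (median -0.54), and 2 DEGs lower and 1 higher. Of the 15 leukocyte genes 8 were lower (-0.20). Over all genes 49.3% were lower in PC, and 6.69% were DEGs that were lower. The part of any of these cells in the proteasome levels was not tested.

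**Figure D1:**
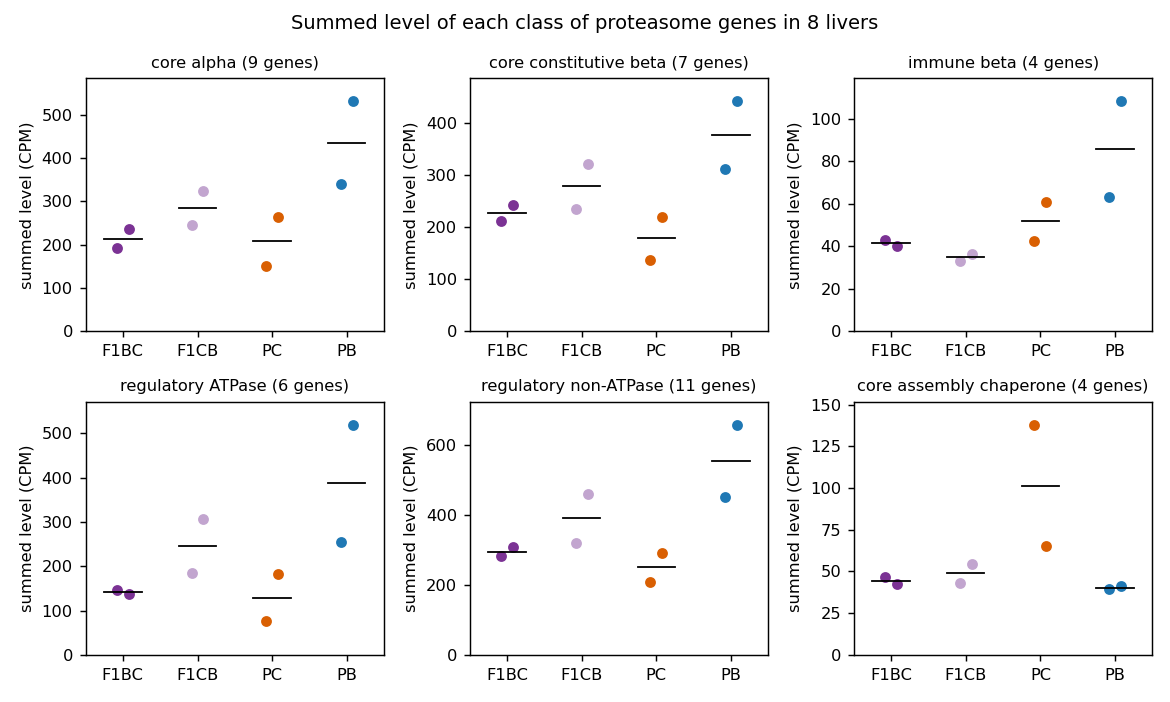
Summed level in CPM (vertical axes, from 0) of 6 classes of proteasome genes in each liver (points) of F1BC, F1CB, PC and PB, with the mean of each type as a bar. Both PC livers lie below both PB livers for the alpha, beta, ATPase and non-ATPase classes. They lie above them for the core chaperones, whose sum in PC is mostly psmg3.

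Between PC and PB, 12 of the 51 members (23.5%) were differentially expressed genes (DEGs), with a Benjamini-Hochberg adjusted p under 0.05 in limma and an absolute log2 fold change over 1.5, and 15.8% of all genes tested passed the same rule. The members' excess lay on 1 side. Of the 12, 10 (19.6%) were lower in PC against 6.69% of all genes, and 2 (3.92%) were higher against 9.12%. All 10 that fell in PC were core or regulatory subunits, 3 alpha genes, 1 beta gene, 3 ATPases and 3 non-ATPase genes. That limit to core and regulatory genes rests on the cut-off. The activator gene psme3 (limma adjusted p = 0.0527) and the immune gene psmb8a (0.0560) narrowly missed it. Each was a DEG lower in PC after median-of-ratios or quantile scaling. The median log2 fold change was -0.98 over the members and 0.02 over all genes, and 40 of 51 members (78.4%) were below 0 against 49.3% of all genes. The values of the livers did not overlap and were lower in PC for 29 members (56.9%, against 26.3% of all genes), and higher for 5 (9.8%, against 29.5%).

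The calls depend on single livers. Without the first PC liver 1 member was a DEG (psma6b, lower in PC) and without the second PB liver none was, by limma (12 had an unadjusted p under 0.05), while 9.3% and 6.92% of all genes still were. Without the second PC liver there were 19, against 19.1% of all genes. Of the 8 fits that each left out a liver, psmd2, psmc5, psmb6, psmd14, psmd4a and psmc1a were DEGs in 6, psmf1 in 5, psma3 in 3, psmc6 and psma6b in 2, and psma6a and psmg3 in 1. Leaving out a hybrid liver cannot move a fold change between PC and PB, only its p-value, and the tally above includes such fits. The median was -0.98 in them by construction. Without a PC or PB liver it stayed below 0 and lay between -1.30 and -0.54. By class, the median without the first PC liver was -0.85 for the alpha genes, -0.87 for the constitutive beta genes, -0.83 for the ATPases and -0.74 for the non-ATPase genes, and without the second PB liver -1.05, -0.85, -0.99 and -0.54, so the order of the classes also depends on these livers.

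Among the alpha subunits, which form the outer rings and the gate of the core, all 9 were lower in PC, with a median log2 fold change of -1.35, and 3 passed the test. The gene psma3 (ENSIPUG00000002025) had 27.8 and 40.7 CPM in F1BC, 36.1 and 73.1 CPM in F1CB, 22.7 and 39.5 CPM in PC, and 69.3 and 126 CPM in PB. PC and PB livers did not overlap, and the log2 fold change was -1.62 (SE 0.49, adjusted p = 0.0415). Both members annotated as alpha 6 passed. For psma6a (ENSIPUG00000012570) the levels were 10.1 and 12.7 CPM in F1BC, 12.6 and 16.1 CPM in F1CB, 2.55 and 12.8 CPM in PC, and 23.1 and 27.7 CPM in PB. The first PC liver stood far below the second, and the log2 fold change of -2.02 (SE 0.60, adjusted p = 0.0381) was -0.95 without it. For psma6b (ENSIPUG00000014998) they were 1.92 and 5.59 CPM in F1BC, 6.07 and 8.71 CPM in F1CB, 3.33 and 1.16 CPM in PC, and 5.54 and 20.7 CPM in PB. The log2 fold change was -2.17 (SE 0.69, adjusted p = 0.0487), the second PB liver stood above all others, and without that liver the value was -1.26. The other alpha genes psma1, psma2, psma4, psma5, PSMA7 and psma8 had log2 fold changes between -1.35 and -0.48 and did not pass.

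Among the constitutive beta subunits 6 of 7 were lower in PC, with a median of -1.11, and 1 passed. It was psmb6 (ENSIPUG00000020905), which carries the caspase-like cutting site, with 23.1 and 23.9 CPM in F1BC, 28.0 and 37.7 CPM in F1CB, 6.47 and 16.6 CPM in PC, and 36.6 and 52.7 CPM in PB. The 4 hybrid livers lay between the PC and the PB livers except that 1 F1CB liver reached into the range of PB, and the log2 fold change of PC over PB was -2.02 (SE 0.49, adjusted p = 0.0151). The trypsin-like subunit psmb7 had 47.1 and 67.4 CPM in F1BC, 58.2 and 86.5 CPM in F1CB, 27.7 and 54.2 CPM in PC, and 65.4 and 108 CPM in PB, a log2 fold change of -1.11 between PC and PB (SE 0.46, adjusted p = 0.118). The chymotrypsin-like subunit psmb5 did not share the direction. It had 10.1 and 11.7 CPM in F1BC, 12.8 and 14.8 CPM in F1CB, 11.1 and 16.0 CPM in PC, and 10.4 and 15.4 CPM in PB, and the PC and PB livers overlapped (log2 fold change 0.07, SE 0.44, adjusted p = 0.928). The structural subunits psmb1, psmb2, psmb3 and psmb4 had values between -1.28 and -0.75 and did not pass.

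**Figure D2:**
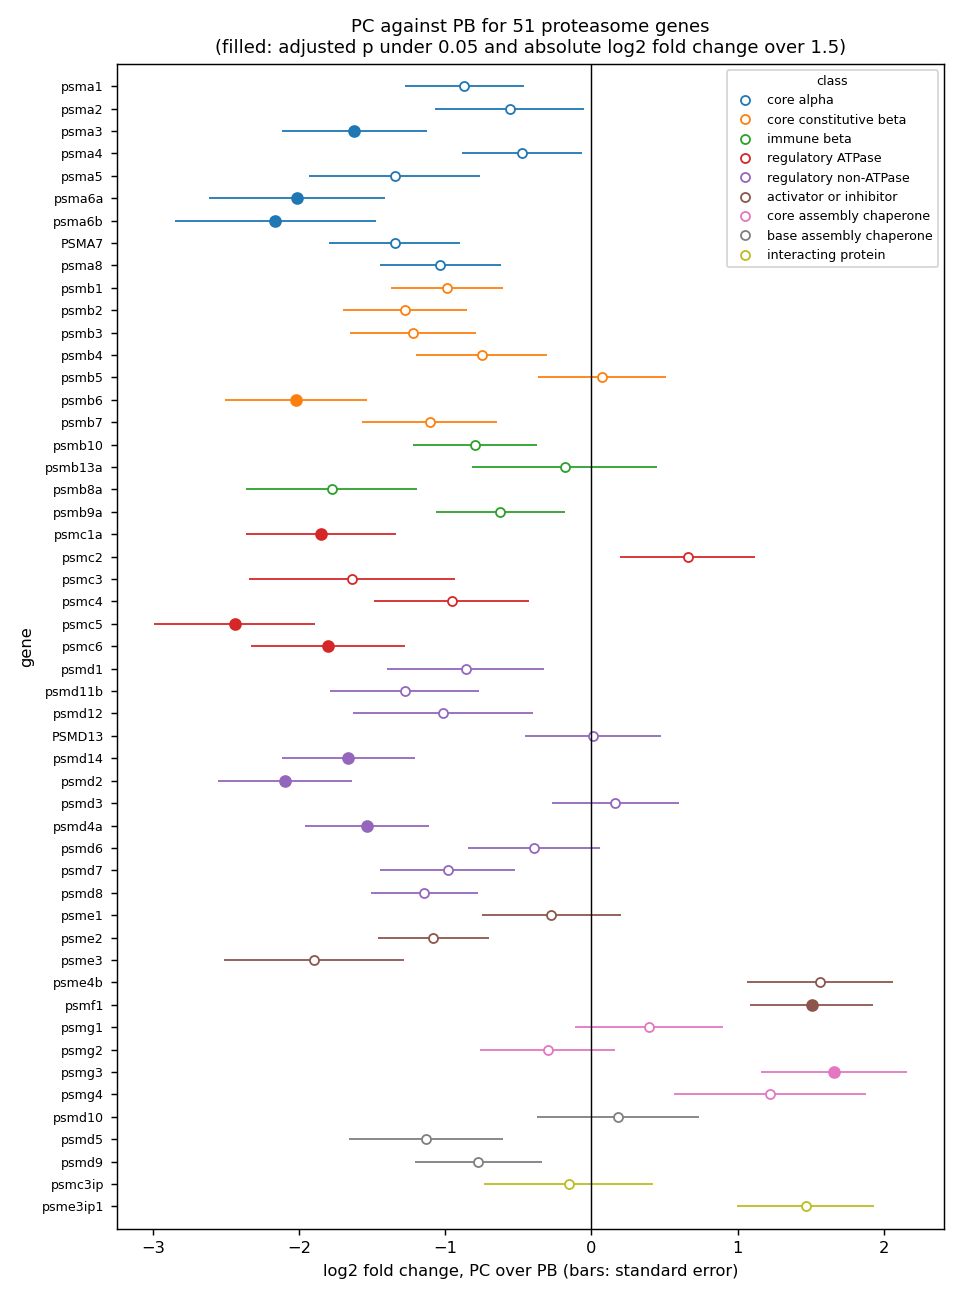
Log2 fold change of PC over PB with its standard error (horizontal axis) for each of the 51 members (vertical axis), coloured by class and filled where the gene was a DEG. The 10 filled points left of 0 are core and regulatory genes, and the 2 right of 0 are psmf1 and psmg3.

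The ATPases form the ring that unfolds substrates. Of the 6, 5 were lower in PC, the median was -1.72 (-0.83 without the first PC liver), and psmc5, psmc1a and psmc6 passed. The largest fold change of any member was that of psmc5 (ENSIPUG00000017518), with 19.6 and 23.3 CPM in F1BC, 27.4 and 47.5 CPM in F1CB, 5.99 and 19.6 CPM in PC, and 47.4 and 80.0 CPM in PB. Both PC livers lay far below both PB livers, with a log2 fold change of -2.44 (SE 0.55, adjusted p = 0.0114). The levels of psmc1a (ENSIPUG00000000956) were 71.9 and 54.0 CPM in F1BC, 96.7 and 175 CPM in F1CB, 37.0 and 88.9 CPM in PC, and 148 and 294 CPM in PB. F1BC lay within the range of PC for this gene, and PC was below PB without overlap (log2 fold change -1.85, SE 0.51, adjusted p = 0.0286). For psmc6 (ENSIPUG00000017970) there were 17.0 and 12.6 CPM in F1BC, 10.1 and 15.1 CPM in F1CB, 7.48 and 11.1 CPM in PC, and 19.8 and 55.3 CPM in PB. Here the PB livers differed most from each other, and the log2 fold change was -1.80 (SE 0.53, adjusted p = 0.0357). The ATPases psmc3 (-1.64) and psmc4 (-0.96) did not pass, and psmc2 was above 0 (0.66, adjusted p = 0.353).

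Of the 11 non-ATPase subunits 9 were lower in PC, with a median of -1.01, and psmd2, psmd14 and psmd4a passed. The scaffold subunit psmd2 (ENSIPUG00000018752), which in yeast and mammals docks shuttle proteins carrying ubiquitinated cargo, had 20.2 and 22.9 CPM in F1BC, 21.6 and 25.1 CPM in F1CB, 7.62 and 18.1 CPM in PC, and 51.4 and 52.6 CPM in PB. Its PB livers were close together and stood above the other 6 livers, and the log2 fold change of PC over PB, -2.10 (SE 0.46), had the smallest adjusted p of the members (0.01). The deubiquitinase psmd14 (ENSIPUG00000010063), which removes the ubiquitin chain before entry, had 14.7 and 21.9 CPM in F1BC, 24.9 and 37.6 CPM in F1CB, 10.8 and 15.3 CPM in PC, and 32.4 and 54.3 CPM in PB. PC was below PB without overlap (log2 fold change -1.66, SE 0.46, adjusted p = 0.0274). The ubiquitin receptor psmd4a (ENSIPUG00000010149) had 32.8 and 31.4 CPM in F1BC, 44.5 and 52.4 CPM in F1CB, 21.2 and 28.5 CPM in PC, and 52.9 and 99.0 CPM in PB, again with no overlap between PC and PB (log2 fold change -1.54, SE 0.43, adjusted p = 0.0285). The remaining 8, psmd1, psmd3, psmd6, psmd7, psmd8, psmd11b, psmd12 and PSMD13, had log2 fold changes between -1.28 and 0.16. Of these psmd8 came nearest to the threshold (-1.14, SE 0.37, adjusted p = 0.0508).

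**Figure D3:**
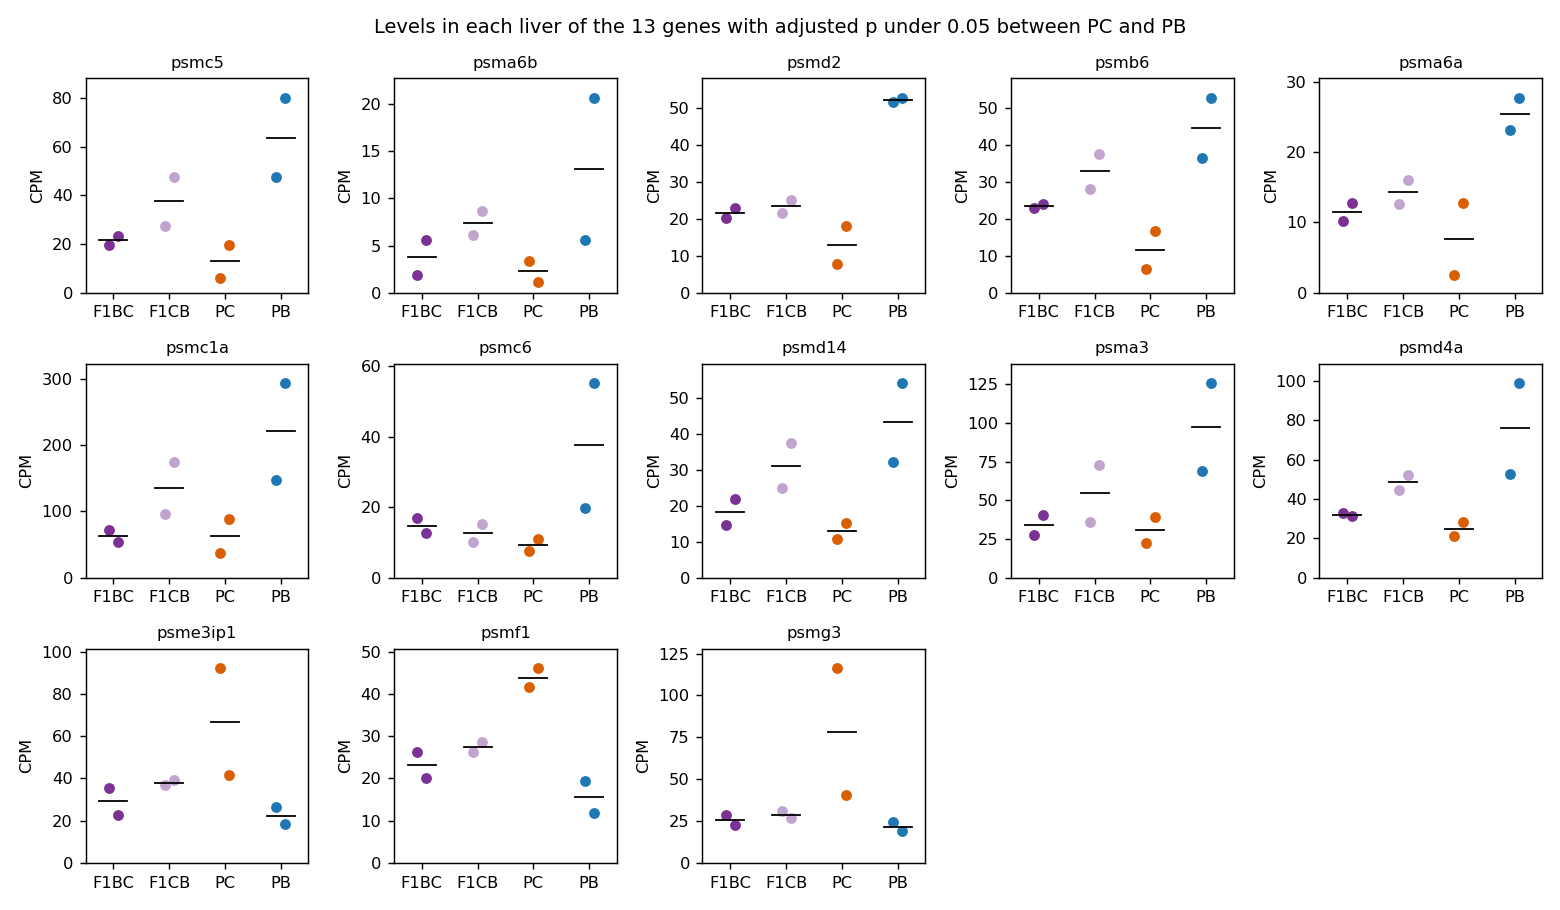
Level in CPM (vertical axes, from 0) in each liver (points) of F1BC, F1CB, PC and PB, with type means as bars, for the 13 members with an adjusted p under 0.05 between PC and PB. The genes run from the most negative to the most positive fold change, and the F1BC and F1CB means lie between those of PC and PB in all panels but psmc1a.

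The DEGs that rose in PC were neither core nor regulatory subunits. The gene psmf1 (ENSIPUG00000001567), which encodes a protein first described as an inhibitor of the core in vitro, had 26.4 and 20.02 CPM in F1BC, 26.3 and 28.6 CPM in F1CB, 41.6 and 46.1 CPM in PC, and 19.4 and 11.7 CPM in PB. All hybrid livers lay between the PC and the PB livers, and PC was higher than PB (log2 fold change 1.51, SE 0.42, adjusted p = 0.0292). This value is close to the fold threshold and was 1.47 after median-of-ratios scaling. The core chaperone psmg3 (ENSIPUG00000018573) had 28.6 and 22.8 CPM in F1BC, 30.9 and 26.6 CPM in F1CB, 116 and 40.3 CPM in PC, and 24.3 and 18.8 CPM in PB. The first PC liver stood far above the rest, and the log2 fold change of 1.66 (SE 0.50, adjusted p = 0.0390) became 0.90 without it. The interacting protein gene psme3ip1 (ENSIPUG00000020154) had 35.4 and 22.9 CPM in F1BC, 37.0 and 39.0 CPM in F1CB, 92.1 and 41.6 CPM in PC, and 26.3 and 18.5 CPM in PB. It passed on the adjusted p alone (log2 fold change 1.47, SE 0.47, adjusted p = 0.0499), so that 13 members had an adjusted p under 0.05 (16.8% of all genes did), 3 of them higher and 10 lower. The first PC liver stood far above the rest for psme3ip1 as well, and its log2 fold change was 0.90 without that liver.

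The activators did not move together. The pair psme1 and psme2 form an interferon-induced cap in mammals. The levels of psme1 were 131 and 105 CPM in F1BC, 77.0 and 114 CPM in F1CB, 93.4 and 232 CPM in PC, and 143 and 222 CPM in PB, and those of psme2 were 79.4 and 87.7 CPM in F1BC, 87.1 and 115 CPM in F1CB, 77.1 and 97.1 CPM in PC, and 158 and 213 CPM in PB. PC and PB overlapped for psme1 (log2 fold change -0.27, SE 0.47, adjusted p = 0.725) and not for psme2 (-1.08, SE 0.38, adjusted p = 0.0696). The nuclear activator gene psme3 had 6.31 and 18.4 CPM in F1BC, 6.30 and 19.9 CPM in F1CB, 4.48 and 6.81 CPM in PC, and 19.0 and 25.4 CPM in PB, with a log2 fold change of -1.90 (SE 0.62, adjusted p = 0.0527). It passed as a DEG after median-of-ratios or quantile scaling. The opposite direction was seen for psme4b, which encodes a large activator that works without ATP, at 2.56 and 1.95 CPM in F1BC, 2.28 and 3.47 CPM in F1CB, 5.96 and 6.66 CPM in PC, and 1.39 and 2.30 CPM in PB. Its PC livers lay above all 6 others, and its log2 fold change of 1.56 (SE 0.50, adjusted p = 0.0507) missed the threshold. After either scaling psme4b too passed as a DEG. The remaining chaperones psmg1, psmg2, psmg4, psmd5, psmd9 and psmd10 had values between -1.13 and 1.22 and did not pass. Neither did psmc3ip, at -0.16.

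Against both parents the hybrids gave no call. None of the 51 members was a DEG or had an adjusted p under 0.05 in limma for F1BC against PC, F1CB against PC, F1BC against PB, F1CB against PB, F1CB against F1BC or the hybrids against the parents, where 0.805%, 2.03%, 2.28%, 1.42%, 0.149% and 0.0447% of all genes were DEGs. With an unadjusted p under 0.05 there were 5, 8, 15, 5, 2 and 2 members in the same order, against 19.3%, 21.7%, 19.3%, 15%, 8.08% and 14.1% of all genes. Between PC and PB there were 27 (32.7% of all genes). All 15 in F1BC against PB were lower in F1BC (29.4%, against 13.2% of all genes). Livers did not overlap and were lower in F1BC than in PB for 33 members (64.7%, against 40.3%), and in F1CB than in PB for 20 (39.2%, against 29.2%). The smallest adjusted p in each of these comparisons lay between 0.0807, for psmb9a in F1CB against PB, and 0.58, for psmc3ip in F1CB against F1BC.

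The hybrids mostly lay between the parents in mean level. Both hybrid means were between the parental means for 27 members (52.9%, against 31.7% of all genes), in the order PC lowest and PB highest for 22 of them (43.1%, against 15.2%) and the reverse for 5 (9.8%, against 16.6%). These orderings share the parental livers and are descriptions without a test. Along the log2 distance from PB to PC, the 13 members with an adjusted p under 0.05 lay at a median of 61.7% in F1BC (15.4% to 93.7%) and 37.7% in F1CB (21.3% to 77.0%). F1BC was thus placed nearer to PC and F1CB nearer to PB for the median gene. The 3 genes higher in PC lay nearer to PB in F1BC, at 15.4% (psmg3), 24.5% (psme3ip1) and 39.2% (psmf1). So did psmb6 (44.0%), which was lower in PC. In F1CB, psmc6 (77.0%), psmf1 (55.9%), psmd2 (54.6%), psma3 (52.7%) and psme3ip1 (52.4%) lay nearer to PC. The 13 were chosen on the parental livers that set the distance, and no position over all genes is given. After median-of-ratios scaling the median log2 differences of the 51 members in F1BC were 0.50 against PC and -0.51 against PB. On the 33 core and regulatory genes, F1CB exceeded F1BC in 31, with a median log2 difference of 0.37 against 0.15 over all genes, and none passed. F1CB livers lay above F1BC livers without overlap for 21 of the 51 members (41.2%, against 28.7% of all genes). Below 0.8 times the lower parent in both hybrids were psmb9a, psmb13a and psme1, or 5.88% of the members, against 13% of all genes. This count was made before scaling and not repeated after it, although the median-of-ratios factors were 0.90 and 0.79 in F1BC against 1.11 and 1.15 in PC.

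The totals of the libraries bear on these hybrid values. Over all genes the log2 difference had a median of -0.37 for F1BC against PC, -0.22 for F1CB against PC, -0.35 for F1BC against PB, -0.18 for F1CB against PB, 0.15 for F1CB against F1BC and -0.25 for the hybrids against the parents. The members had medians of 0.10, 0.47, -0.87, -0.45, 0.30 and -0.17 in the same order. After median-of-ratios scaling the medians of the members were 0.50, 0.69, -0.51, -0.25, 0.13 and 0.13, so the sign for the hybrids against the parents turned. The members lower and higher in that comparison numbered 39 and 12 before, and 13 and 38 after scaling (69.8% of all genes were lower before it), and in F1BC against PC 21 and 30 before, and 11 and 40 after (67.8% of all genes lower before). In F1CB against F1BC they were 9 and 42 before, and 19 and 32 after (60.1% of all genes higher before).

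The summed immune beta subunits had another order of type means than the constitutive ones. The 4 genes together had 42.8 and 39.9 CPM in F1BC, 33.1 and 36.3 CPM in F1CB, 42.6 and 61.0 CPM in PC, and 63.2 and 108 CPM in PB. F1CB held the lowest level here, whereas for the constitutive core F1CB was above both F1BC and PC in the mean. The immune class had a median log2 difference of -0.54 in F1CB against PC while the alpha and constitutive beta classes had 0.65 and 0.48, and it had -0.52 in F1CB against F1BC while they had 0.37 and 0.33. The genes of the class differed, since 2 of the 4 were higher and 2 lower in F1CB against PC. Before any scaling of the libraries, psmb10 had its type means in the order of the constitutive core. The difference between the classes was not tested, and no immune gene passed in any comparison.

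The gene psmb9a (ENSIPUG00000021600), the immune counterpart of psmb6, had 15.5 and 13.7 CPM in F1BC, 9.25 and 10.5 CPM in F1CB, 23.5 and 20.4 CPM in PC, and 24.5 and 47.1 CPM in PB. All 4 hybrid livers lay below all 4 parental livers, which was so for 1 member (1.96%) and for 4.95% of all genes. The log2 difference of the hybrids from the parents was -1.15 (SE 0.31, adjusted p = 0.197). For psmb13a (ENSIPUG00000021665), described in the annotation as similar to beta type 7, there were 6.02 and 7.12 CPM in F1BC, 5.12 and 3.94 CPM in F1CB, 6.30 and 18.4 CPM in PC, and 6.46 and 23.3 CPM in PB. The parental livers were far apart, and the hybrids' difference was -1.03 (SE 0.45, adjusted p = 0.338). The levels of psmb8a (ENSIPUG00000021646), the counterpart of psmb5, were 3.40 and 4.80 CPM in F1BC, 2.77 and 2.18 CPM in F1CB, 1.15 and 4.58 CPM in PC, and 7.51 and 11.8 CPM in PB. Both PB livers stood above the other 6, and PC against PB had a log2 fold change of -1.78 (SE 0.59, adjusted p = 0.0560), and passed as a DEG after median-of-ratios or quantile scaling. For psmb10 (ENSIPUG00000004411), the counterpart of psmb7, there were 17.9 and 14.3 CPM in F1BC, 15.9 and 19.7 CPM in F1CB, 11.6 and 17.6 CPM in PC, and 24.7 and 25.8 CPM in PB, and PB again lay above the rest (PC over PB -0.80, SE 0.42, adjusted p = 0.212).

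**Figure D4:**
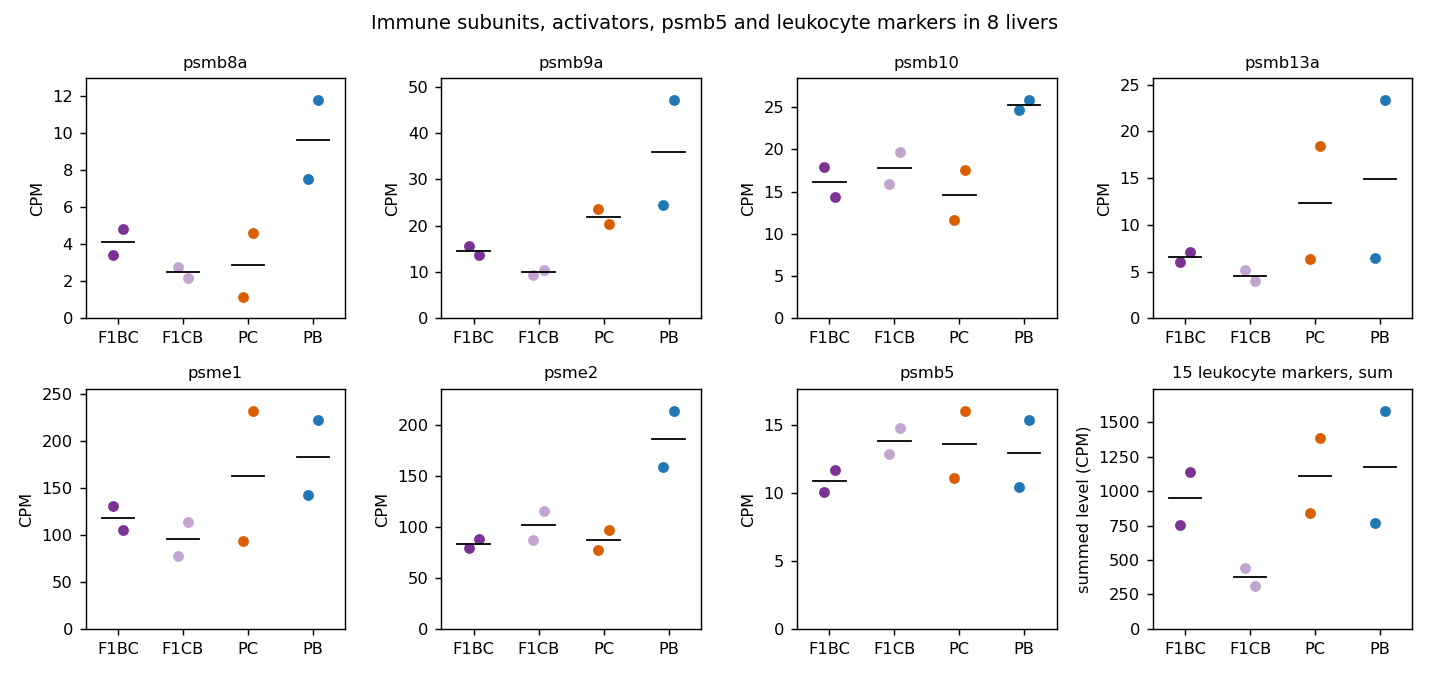
Level in CPM (vertical axes, from 0) in each liver (points) of F1BC, F1CB, PC and PB, with type means as bars, for the immune subunits, psme1, psme2 and psmb5, and the summed level of 15 leukocyte markers. The markers sum to 444 and 314 CPM in F1CB, the lowest of the 8 livers, and psmb8a, psmb9a and psmb13a are lower in F1CB than in F1BC without overlap.

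In F1CB, leukocyte markers were low, and psmb9a and psmb13a were lower than in each other type. The gene psmb8a was lower in F1CB than in F1BC and PB but not than in PC (log2 difference 0.03). The 15 markers on that list summed to 752 and 1141 CPM in F1BC, 444 and 314 CPM in F1CB, 838 and 1384 CPM in PC, and 770 and 1581 CPM in PB, and none of them was at or under 1 CPM in all livers. All 15 had lower means in F1CB than in each of the other types, of which cd74b and cd79a passed against PC and none against F1BC or PB. Over all genes, 60.2% were lower in F1CB than in PC, 39.9% than in F1BC and 60.6% than in PB. Lower DEGs in F1CB against PC made up 0.999% of all genes. With psmd10, the immune genes psmb8a, psmb9a and psmb13a were the 4 members lower in F1CB than in F1BC without overlap (7.84%, against 17.4% of all genes). The gene psmb10 did not share this, with a mean of 17.8 CPM in F1CB against 16.1 CPM in F1BC and livers that overlapped. After median-of-ratios or quantile scaling, however, all 4 immune genes were lower in F1CB than in F1BC, psmb10 included. Between PC and PB, where all 4 immune genes were below 0, the markers split into 7 higher and 8 lower in PC. The part of the leukocyte content in these values was not tested.

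Per kilobase of transcript, immune and constitutive subunits could be set side by side. The ratio of psmb8a to psmb5 was 0.887 and 1.081 in F1BC, 0.567 and 0.387 in F1CB, 0.271 and 0.750 in PC, and 1.89 and 2.01 in PB. It was thus over 1 in both PB livers and 1 F1BC liver. The level of psmb5 itself was low, at 5.63 CPM per kilobase against 16.3 to 51.4 for the other constitutive beta genes. The structural psmb1 was 3.83 to 9.87 times psmb5 over the 8 livers. A ratio over 1 therefore does not show an excess of the immune form, and how well psmb5 was measured was not tested. The ratio of psmb9a to psmb6 was 0.290 and 0.247 in F1BC, 0.142 and 0.120 in F1CB, 1.57 and 0.526 in PC, and 0.288 and 0.384 in PB. PC had the highest ratios here and F1CB the lowest, with psmb6 low in PC. The ratio of psmb10 to psmb7 stayed between 0.318 and 0.628 over the 8 livers.

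Over all members and livers, the level per kilobase ran from 0.606 CPM for psme4b to 77.7 CPM for psmc1a. The next highest were psme1 (58.4 CPM per kilobase) and psmb7 (51.4), and the next lowest psmg4 (0.874) and PSMD13 (2.99). Both ends of the range among the members that are core or regulatory subunits, PSMD13 and psmc1a, belong to the regulatory particle. The gene psd13, described as the same subunit as PSMD13 but not a member, had 18.1 CPM per kilobase. For PSMD13 the levels were 6.04 and 9.26 CPM in F1BC, 12.6 and 10.4 CPM in F1CB, 13.7 and 8.15 CPM in PC, and 9.12 and 12.05 CPM in PB. For psmg4 they were 2.83 and 4.33 CPM in F1BC, 1.14 and 7.01 CPM in F1CB, 5.26 and 5.18 CPM in PC, and 2.32 and 1.63 CPM in PB. PC and PB livers overlapped for PSMD13, and F1CB livers lay above F1BC livers. For psmg4 the PC livers lay above the PB livers.

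Several subunits have more than 1 gene in the annotation, and reads may be split between near-identical copies. Another gene described as subunit 13 of the non-ATPase group, psd13, falls outside the symbol rule. It had 28.3 and 28.8 CPM in F1BC, 27.5 and 45.5 CPM in F1CB, 16.3 and 31.7 CPM in PC, and 58.8 and 69.2 CPM in PB, with a log2 fold change of PC over PB of -1.47 (SE 0.45, adjusted p = 0.0421) where PSMD13 had 0.01. Summed, the pair of genes gave 29.96 and 39.9 CPM in PC against 67.9 and 81.3 CPM in PB. For alpha 6, the sum of psma6a, psma6b and psa6 was 13.2 and 20.2 CPM in PC against 41.9 and 75.6 CPM in PB, a ratio of the means of 0.285, although psa6, which the symbol rule leaves out, did not pass alone (log2 fold change -1.43, adjusted p = 0.0565). The sum of psma2 and psa2 was 38.4 and 45.7 CPM in PC against 44.8 and 87.4 CPM in PB. A further beta 9 gene outside the rule, pb9la, brought the sum with psmb9a to 27.8 and 34.3 CPM in PC against 30.8 and 60.5 CPM in PB, so that PC and PB overlapped for the sum but not for psmb9a.

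PSMA7 (ENSIPUG00000014958) is an uncertain member. It had 29.9 and 39.2 CPM in F1BC, 39.2 and 49.9 CPM in F1CB, 19.6 and 39.9 CPM in PC, and 59.3 and 87.7 CPM in PB. The gene lsm14b (ENSIPUG00000014946), which encodes an RNA-binding protein, had 29.98 and 39.7 CPM in F1BC, 40.6 and 50.6 CPM in F1CB, 20.2 and 41.1 CPM in PC, and 59.3 and 87.8 CPM in PB. The ratio of lsm14b to PSMA7 lay between 1.0004 and 1.04 in all 8 livers (coefficient of variation 0.0142), and no other member had a gene with a coefficient under 0.02. The strand setting of the counting was not stated, and the same reads may have been counted for both genes. The log2 fold changes of PC over PB, -1.35 for PSMA7 (adjusted p = 0.0590) and -1.31 for lsm14b (adjusted p = 0.0654), may therefore not be separate measurements.

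**Figure D5:**
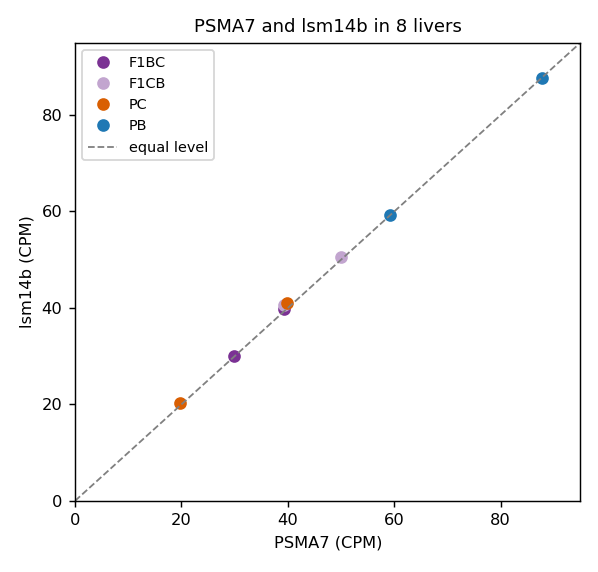
Level of lsm14b against that of PSMA7, both in CPM, in the 8 livers (points, coloured by type), with the line of equal level dashed. All points lie on or just above the line.

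Partners of the proteasome did not follow the subunits as a list. Of 31 ubiquitin and proteasome partner genes, 17 were higher in PC than in PB and 14 lower, with a median log2 fold change of 0.06. Among the 31, 2 DEGs rose and 2 fell, where 9.12% of all genes rose and 6.69% fell, so the list held no excess of calls. The transcription factor gene NFE2L1, which in mammals drives proteasome genes when degradation is impaired, had 103 and 96.6 CPM in PC against 23.2 and 28.2 CPM in PB (log2 fold change 1.94, SE 0.43, adjusted p = 0.0107). The deglycosylase gene ngly1, whose product processes that factor in mammals, had 18.4 and 8.19 CPM in PC against 2.87 and 2.45 CPM in PB (2.02, SE 0.50, adjusted p = 0.0181). Both genes were higher in PC, and a tie between them and the lower subunit genes was not tested. On the same list nfe2l1a (1.17), ddi2 (0.59) and vcp (-0.82) did not pass. The zinc finger genes zfand2a and zfand5a, whose relatives in mammals bind the proteasome, had log2 fold changes of -1.71 (adjusted p = 0.0217) and -1.79 (adjusted p = 0.0359). The gene zfand2a was also lower in F1BC than in PB (-2.05, adjusted p = 0.0340). The chaperone gene pomp and the ubiquitin receptor gene ADRM1, which the symbol rule leaves out, had -0.60 and -0.78 between PC and PB and did not pass.

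Genes of interferon response and antigen presentation, 24 in all, split evenly between PC and PB (12 higher and 12 lower), and the 4 DEGs rose in PC (adjusted p between 7.7e-05 and 0.0436), a count to be read against the 9.12% of all genes that rose. They were tapbpl, a peptide editor (192 and 84.0 CPM in PC against 4.23 and 2.20 CPM in PB), erap1a, a peptide-trimming protease (26.7 and 9.48 CPM in PC against 0.250 and 0.738 CPM in PB), 1 of the 2 genes named erap1b (21.8 and 12.03 CPM in PC against 3.03 and 3.76 CPM in PB), and tap1, a peptide transporter subunit (8.99 and 8.77 CPM in PC against 2.07 and 3.15 CPM in PB). Their direction was the opposite of that of the immune subunits psmb8a, psmb9a and psmb10, whose PC livers lay below the PB livers but none of which passed. The genes tapbpl and erap1a were also higher in both hybrids than in PB, while tap1 was lower in F1CB than in PC (-2.17, adjusted p = 0.0465). As a list, 21 of the 24 were lower in F1BC than in PC (median log2 difference -0.57) and 20 in F1CB (-0.84). Of all genes 67.8% and 60.2% were. Against PB, 14 were lower in F1BC and 15 in F1CB (67% and 60.6% of all genes). In the hybrids against the parents 18 were lower (-0.44), as were 69.8% of all genes. These counts were made before scaling.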

How the data were processed

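The deposited values, called RPKM by the authors, behaved as CPM: libraries summed to 996838 to 998652, and the log2 of gene means differed from the authors' own average log2 CPM by a median of -0.0089 (-1.68 after division by transcript length). The authors trimmed reads (Trimmomatic), mapped them with TopHat2 2.1.1 to the channel catfish genome (build not given in the sources used here), counted with bedtools 2.29.0 and used edgeR. Their fold change and p-value columns were not used.

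Genes with a type mean over 1 CPM were tested with limma 3.58.1 (R 4.3.3) on log2(CPM + 0.5), with an intensity trend and all 8 libraries in 1 fit. Fold changes are on that scale, which understates changes of low genes. The 7 comparisons were adjusted separately by Benjamini-Hochberg, over 13420 genes. An assumed RPKM unit became CPM, with the same test. The script was tested on simulated data. Classes and lists came from general knowledge, and levels per kilobase used the listed transcript lengths. Per-liver values are given for members with an adjusted p under 0.05, immune subunits, psmb5 to psmb7, psme genes, the 3 highest and 3 lowest per kilobase, and genes proportional to a member. Members and lists were chosen with earlier results of these data known. ADRM1, pomp, psd13, psa2 and psa6 were chosen after their values were seen.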

Additional observations from a re-analysis of the deposited data

How the results depend on the processing

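The number of DEGs among the members was 12 for PC against PB and 4 in a fit of these types alone, and leaving out 1 liver at a time gave 0 to 19. The members' median, -0.98, was -0.54 without the second PB liver and ranged from -1.30 to -0.54. For F1BC against PC the median was 0.50 after median-of-ratios scaling and 0.53 after quantile normalization, and -0.22 to 0.45 with a liver left out, turning to -0.05 without the second F1BC liver and to -0.22 without the first PC liver. For the hybrids against the parents it turned to 0.13 after median-of-ratios scaling and to 0.11 after quantile normalization. With a liver left out, 0 to 1 DEGs were found in F1BC against PC, 0 to 4 in F1CB against PC and 0 to 1 in F1BC against PB. The replicate numbers were not taken to pair the livers, since nothing in the labels ties them and the correlations of deviations lay between -0.01 and 0.14, over 0.1 in 4 of 6 pairs of types, and a fit with the replicate block gave 15 DEGs in PC against PB, 2 in F1CB against PC and 1 in F1BC against PB. No member called between PC and PB changed direction in any fit. Over the settings other than leaving out a liver (pseudocounts of 0.1 and 1, no filter or a filter at 5 CPM, no intensity trend, both scalings, the block, the fit of 2 types and, chosen after seeing the data, leaving out the 2 interacting proteins), 66 of 69 counts of DEGs were equal or within 1.5 times. Most of these counts were 0 in both fits, and in PC against PB they ran from 4 to 15. Of 56 medians, 52 kept their sign and moved by less than the spread between livers. With no filter, the filter at 5 CPM or the block, the medians could not move. All members passed both filters, and every type held both replicate numbers. The causes of the shifts were not tested. With 2 livers per type and no counts, precision rests on the spread between livers alone.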
